A study of Mus musculus with 10 samples.

Results

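The genes described here are 32 genes for chaperones of the endoplasmic reticulum (ER) and for the unfolded protein response, taken as a list of symbols and not by their values. All 32 were found among the 28987 Ensembl gene IDs of the series. RNA was from ileal crypts, the pits between the villi that house the stem cells and, at their base, the Paneth cells, shaken off the tissue in a warm EDTA buffer. The 3 groups were Ctrl, with the genotype VilCreER;Stat5 (STAT5+/+) and 3 libraries, KO, with VilCreER;Stat5 (STAT5IEC-/-) and 2 libraries, and OE, with VilCreER;icS5 (STAT5IEC+++) and 5 libraries. Every mouse was labelled C57Bl6, male and 12 weeks old. All groups carry VilCreER, a Cre recombinase driven by the villin promoter of the intestinal epithelium, so Ctrl carries it too. The labels do not spell out icS5, and no control of that line was analysed here. No source used here says whether the libraries are from different animals. The p-values therefore rest on the spread between libraries, part of which may be technical.

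Secreted and membrane proteins fold in the ER with the help of chaperones, and unfolded protein there is sensed by 3 membrane proteins. IRE1 splices the mRNA of the transcription factor XBP1, PERK slows translation and favours translation of ATF4 and then of CHOP, and ATF6 is cut to release a transcription factor. Their targets include the ER chaperones and the genes of ER-associated degradation (ERAD), which returns misfolded protein to the cytosol. In the gut this machinery serves the strongly secreting Paneth and goblet cells, and another IRE1 gene, Ern2, is used by gut epithelium. Gene-level values do not separate spliced from unspliced Xbp1 mRNA, and they do not show the phosphorylation of PERK or the cutting of ATF6.

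Levels are given as scaled TPM, the deposited transcript shares divided by a factor per library so that libraries are comparable for most genes. Read depth is unknown, since TPM keep no read numbers. The library Ctrl 2 stood apart, with 83.7% of its TPM in mitochondrially encoded genes against 43.3% to 57.0% in the others, and with 8263 genes at 1 TPM or more against 11050 to 11932. Stat5a and Stat5b were lower in both KO libraries than in any Ctrl library. In the library labelled OE 1 they were at 1.56 and 1.49, within the Ctrl ranges of 1.07 to 2.60 and 0.970 to 1.76. In OE 2, OE 3, OE 4 and OE 5 Stat5a was at 2.10, 3.55, 2.81 and 2.81, so OE 2 was also within its Ctrl range. Stat5b was at 3.50, 4.71, 5.53 and 2.65 there, all above its Ctrl range. The summed deposited TPM of 4 Y-linked genes was 32.3 to 131 in 7 libraries but 3.45, 0.250 and 0.140 in Ctrl 3, OE 3 and OE 4, although all mice were labelled male. In bulk RNA, fewer cells of a type and less RNA per cell cannot be told apart.

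A minority of the genes hold a promoter element that the list did not use. The ER stress response element (ERSE), made of CCAAT, then 9 bases of any kind, then CCACG, is bound by NF-Y at its CCAAT end and by ATF6 or XBP1 at its CCACG end. RefSeq promoters of GRCm38.p6, from 250 bases before to 50 bases after the start, were matched for 26 of the 32 genes. No promoter was matched for Ern2, Atf6, Hyou1, Manf, Derl1 and Sec61a1, so these genes were not searched. On either strand, the ERSE was absent from 17 of the 26 and present in 9, or 34.6%, and in 37 of all 27025 genes with a promoter, or 0.137%. The 9 were Hspa5, Hsp90b1, Dnajc3, Calr, Canx, Pdia6, Creld2, Syvn1 and Derl3, which make up 24.3% of all genes with the element. The shorter ERSE-II, made of ATTGG, any base and CCACG, was in Dnajb11 and Herpud1, or 7.69% against 0.044% of all genes. The UPR element core TGACGTG was found in Hspa5 only of the 26 (3.85% against 2.22%), and the ATF4-type element TGATGNAA in Herpud1 only (3.85% against 4.51%). The end pieces alone were common, with CCACG in 21 of 26 against 35.5% of all genes and CCAAT in 22 of 26 against 41.1%, and both counts include the pieces inside an ERSE. A match is a description of these windows and not evidence of binding.

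The windows below are shown because they hold the element in genes of 3 roles whose levels are described next. Each is written 5′ to 3′ on the gene's own strand, with flanking bases on either side of the element, and capitals mark the ERSE (for Herpud1, the ERSE-II).
Hspa5, chr2:34772005-34772063, plus strand: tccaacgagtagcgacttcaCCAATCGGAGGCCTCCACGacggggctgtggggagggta
Hsp90b1, chr10:86705618-86705676, minus strand: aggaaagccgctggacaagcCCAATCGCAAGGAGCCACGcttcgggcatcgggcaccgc
Hsp90b1, chr10:86705513-86705571, minus strand: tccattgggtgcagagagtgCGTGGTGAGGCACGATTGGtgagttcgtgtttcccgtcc
Calr, chr8:84847055-84847113, minus strand: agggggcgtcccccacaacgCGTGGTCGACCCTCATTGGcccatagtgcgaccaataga
Canx, chr11:50325780-50325838, minus strand: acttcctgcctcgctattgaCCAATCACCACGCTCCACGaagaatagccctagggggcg
Pdia6, chr12:17266471-17266529, plus strand: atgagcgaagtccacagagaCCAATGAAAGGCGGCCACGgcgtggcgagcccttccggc
Creld2, chr15:88819500-88819558, plus strand: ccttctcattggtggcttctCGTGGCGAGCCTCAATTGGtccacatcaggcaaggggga
Syvn1, chr19:6046512-6046570, plus strand: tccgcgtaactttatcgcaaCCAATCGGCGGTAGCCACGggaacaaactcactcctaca
Derl3, chr10:75893222-75893280, plus strand: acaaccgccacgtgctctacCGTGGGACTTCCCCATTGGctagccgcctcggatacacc
Herpud1, chr8:94386357-94386407, plus strand: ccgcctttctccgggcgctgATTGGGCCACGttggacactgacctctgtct
The element reads CCAAT first in Hspa5, in the farther of the 2 Hsp90b1 copies, and in Canx, Pdia6 and Syvn1. In the nearer Hsp90b1 copy and in Calr, Creld2 and Derl3 it lies in the other orientation and reads CGTGG first. Counted from the RefSeq start, its first base lies at -65 in Hspa5, -212 and -107 in Hsp90b1, -162 in Calr, -145 in Canx, -98 in Pdia6, -126 in Creld2, -44 in Syvn1 and -156 in Derl3, and at -52 for the ERSE-II of Herpud1. The matched promoters of Xbp1, Atf4, Ddit3, Eif2ak3 and Ern1 held neither element in these windows.

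All 32 genes passed the filter of at least 1 deposited TPM in at least 2 libraries, but Derl3 passed it only through Ctrl 1 and Ctrl 3, so its difference from Ctrl was built into the filter. No gene of the list passed an adjusted p of 0.05 in any of the 3 comparisons, which use limma with Benjamini-Hochberg adjustment over 13056 genes. The share of all genes called was 0% in each. At an unadjusted p under 0.05 there were 1, 2 and 2 of the 32 genes, beside 3.46%, 6.1% and 2.95% of all genes. The 1 gene in KO against Ctrl was Derl3, and without it the counts were 0, 2 and 2 of 31. In KO, 6 genes lay below every Ctrl library (7.27% of all genes did) and 2 lay above every Ctrl library (9.09% of all genes did), so that 8 did not overlap in either direction (16.4% of all genes). In OE, 2 genes lay below every Ctrl library (1.52% of all genes) and 1 above (2.21%), 3 in either direction (3.73%). Without Derl3, 5 genes lay below every Ctrl library in KO and 1 in OE. Against KO, OE had 3 genes above every KO library (4.04% of all genes) and 1 below (4.43%), 4 in either direction (8.47%). KO against Ctrl and OE against Ctrl share the Ctrl libraries, and OE against KO shares its KO libraries with the first, so the comparisons are not independent of each other.

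Levels differed widely among the genes. Averaged over the 10 libraries, 6 genes lay above 100 scaled TPM: P4hb at 469, Calr at 362, Hsp90b1 at 354, Canx at 303, Pdia3 at 257 and Hspa5 at 219. A further 21 lay between 10 and 100, from Xbp1 at 92.2 to Creld2 at 10.7. The 5 lowest were Atf6 at 7.22, Ern1 at 6.74, Ddit3 at 5.53, Ern2 at 4.21 and Derl3 at 0.526. Of the 31 steps between neighbours in this order, 2 were larger than the spread over libraries, from Hspa5 to Xbp1 and from Ern2 to Derl3. The spread here is the larger SD of the 2 genes over the 10 libraries. All other steps were within it, a measure that does not compare 2 genes library by library. Summed over the 32 genes, levels were 2794, 3079.9 and 3984 scaled TPM in Ctrl, 2056 and 2989 in KO, and 3335, 2664, 2226, 3054 and 3016 in OE. The groups overlapped in this sum, with KO 1 lowest and Ctrl 3 highest.

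**Figure D1:**
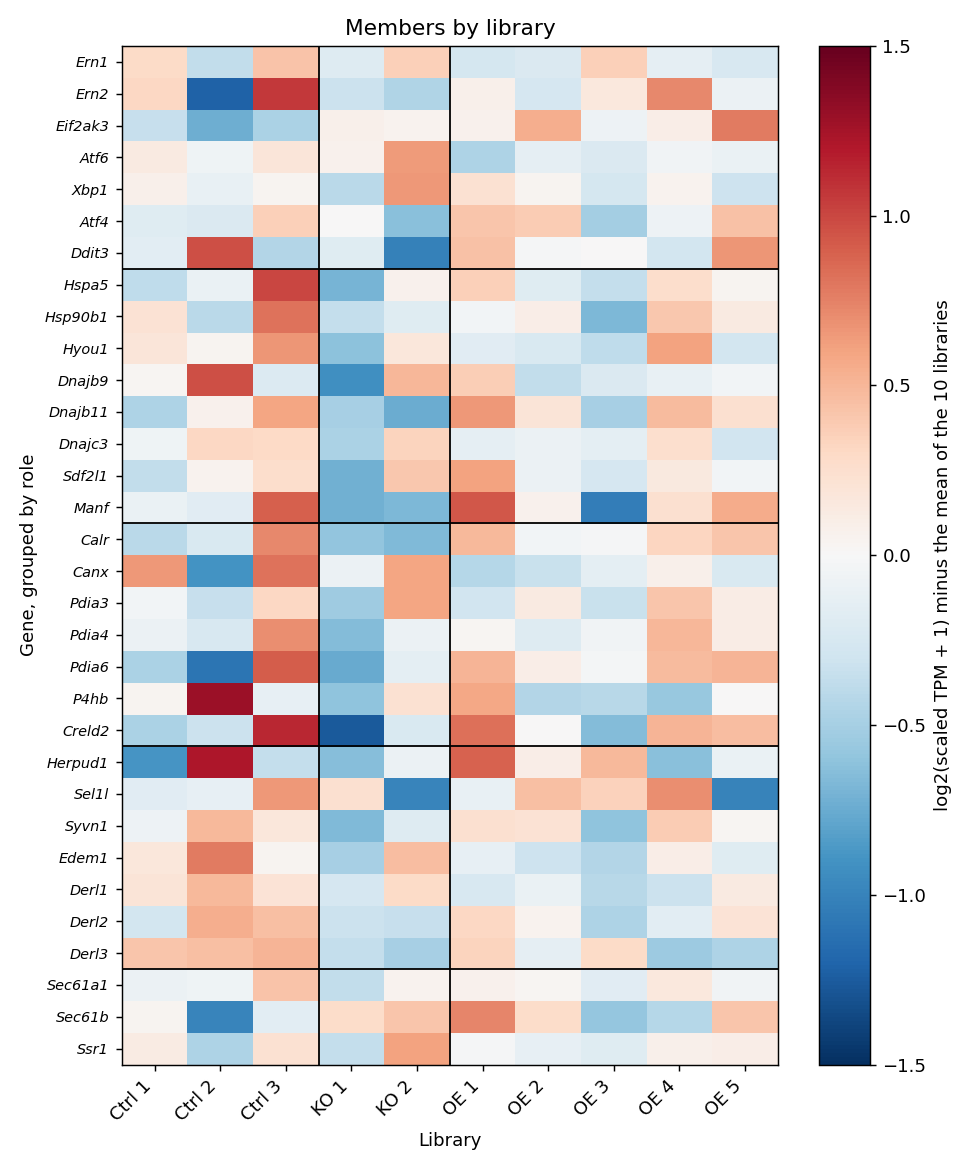
Each row is 1 of the 32 genes, grouped by role, and each column a library, and colour gives log2(scaled TPM + 1) minus that gene's mean over the 10 libraries. Ctrl 3 is red for most genes and KO 1 blue for most, while Ctrl 2 is red for most ERAD genes, P4hb, Ddit3 and Dnajb9 and blue for Ern2, Pdia6 and Canx.

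Much of the variation ran along single libraries. Ctrl 3 held the highest value for 12 of the 32 genes, or 37.5%, while it was the highest library for 9.83% of all genes tested, and it was lowest for 0 of the 32. KO 1 held the lowest value for 13 of the 32, or 40.6%, against 4.42% of all genes, and the highest for 0. Ctrl 2, the library that stood apart, took a large part of the extremes over all genes. It was highest for 23.5% and lowest for 31.8% of them, and for 8 (25%) and 7 (21.9%) of the 32. The median deviation of the 32 genes from their own means was 0.39 on the log2 scale in Ctrl 3 and -0.44 in KO 1, while the medians of all genes tested there were -0.00057 and 0.015. Other libraries lay between, from -0.23 in OE 3 to 0.23 in OE 1, with -0.11 in Ctrl 2 beside -0.12 for all genes there. The median SD within groups was 0.41 on the log2 scale for the 32 genes and 0.47 for all genes tested.

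**Figure D2:**
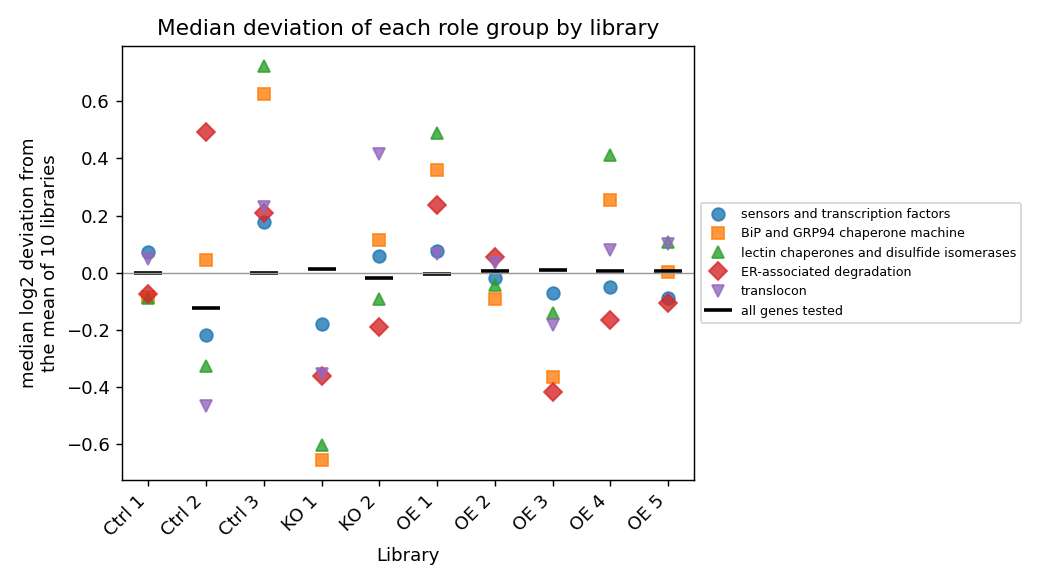
For each library on the horizontal axis, points give the median log2 deviation of the genes of a role from their 10-library means, and black bars give the same median over all genes tested. The BiP and disulfide isomerase groups are highest in Ctrl 3, at 0.63 and 0.72, and lowest in KO 1, at -0.65 and -0.60, and the ERAD group is highest in Ctrl 2, at 0.49.

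Gene coordinates below are those of protein-coding genes in GENCODE M21 on GRCm38, the assembly also known as mm10. The sensor genes were low in all groups beside the 6 genes of the list above 100 scaled TPM. Ern1 (ENSMUSG00000020715, chr11:106394650-106487852), which encodes the widely expressed IRE1, was at 8.25, 4.84 and 9.20 in the Ctrl libraries, 5.63 and 8.68 in those of KO and 5.32, 5.52, 8.70, 5.89 and 5.41 in those of OE. Its ranges overlapped in all comparisons. The log2 difference was -0.034 (95% interval -0.78 to 0.72) for KO against Ctrl, -0.21 (95% interval -0.81 to 0.38) for OE against Ctrl and -0.18 (95% interval -0.87 to 0.50) for OE against KO, with adjusted p of 0.992, 0.845 and 1 (limma). The sign of the first difference turned when KO 1 was left out, to 0.23, and with TPM as deposited, to 0.33.

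Ern2 (ENSMUSG00000030866, chr7:122169893-122186207), the IRE1 gene of gut epithelium, was at 4.94, 1.06 and 8.99 in the Ctrl libraries, 2.82 and 2.50 in those of KO and 4.05, 3.03, 4.35, 6.87 and 3.50 in those of OE. Ctrl 2 was the lowest library and Ctrl 3 the highest, 8.51 times apart, so Ctrl alone spanned all of KO and OE. Both KO libraries lay below all 5 OE libraries. The log2 difference was -0.44 (95% interval -1.69 to 0.81) for KO against Ctrl, 0.072 (95% interval -0.93 to 1.07) for OE against Ctrl and 0.51 (95% interval -0.63 to 1.66) for OE against KO, with adjusted p of 0.943, 0.98 and 1 (limma). Without Ctrl 3 the KO difference was 0.063, and without Ctrl 2 the OE difference from Ctrl was -0.58. The summed level of 7 goblet cell genes, all of them detected, was 1594 to 3563 across Ctrl, 1369.7 to 2297 across KO and 844 to 3134 across OE. It was highest in Ctrl 3, as Ern2 was, but lowest in OE 2, not in Ctrl 2. The 7 genes did not move together, since Muc2 was at 1043 in Ctrl 3 against 142 in Ctrl 2, while Zg16 was at 155 against 682 and Tff3 at 384 against 393. The part of goblet cell genes in the Ern2 values was not tested. The level of Ern1 was above that of Ern2 in 9 of 10 libraries, and below it in OE 4.

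Eif2ak3 (ENSMUSG00000031668, chr6:70844515-70905245), which encodes PERK, had the smallest p of the list in OE against Ctrl, where it ranked 80th of 13056 genes. It was at 13.2, 9.86 and 12.0 in the Ctrl libraries, 18.0 and 17.8 in those of KO and 17.9, 25.3, 16.2, 18.3 and 30.1 in those of OE. All 3 Ctrl libraries lay below every other library, and the KO and OE ranges overlapped. Ctrl averaged 11.7 ± 1.69 (SD, n = 3), KO 17.9 ± 0.141 (SD, n = 2) and OE 21.6 ± 5.89 (SD, n = 5). The log2 difference was 0.80 (95% interval 0.27 to 1.34) in OE against Ctrl (limma adjusted p = 0.755), 0.58 (95% interval -0.085 to 1.25) in KO against Ctrl (adjusted p = 0.943) and 0.22 (95% interval -0.39 to 0.83) in OE against KO (adjusted p = 1). It kept its direction in OE against Ctrl under every alternative run, with log2 differences from 0.65 to 1.23 and adjusted p from 0.397 to 1.00. With TPM as deposited, its OE range overlapped that of Ctrl.

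Atf6 (ENSMUSG00000026663, chr1:170704674-170867771), the third sensor, was at 7.88, 6.70 and 8.12 in the Ctrl libraries, 7.46 and 11.6 in those of KO and 4.86, 6.35, 5.96, 6.80 and 6.52 in those of OE. Every OE library lay below both KO libraries, and both groups overlapped Ctrl. The log2 difference in OE against KO was -0.55 (95% interval -1.10 to 0.0076) (limma adjusted p = 1). Leaving out KO 2 gave -0.26 and leaving out KO 1 gave -0.83.

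Of the transcription factors, Xbp1 (ENSMUSG00000020484, chr11:5520659-5525893), which drives chaperone and ERAD genes in secretory cells, was at 95, 83.2 and 92.9 in the Ctrl libraries, 67.8 and 143 in those of KO and 106, 92.6, 75.1, 94.0 and 72.7 in those of OE. The KO libraries were its lowest and its highest of all 10, on either side of the narrow Ctrl range. Log2 differences were 0.12 (95% interval -0.60 to 0.85) for KO against Ctrl, -0.049 (95% interval -0.63 to 0.53) for OE against Ctrl and -0.17 (95% interval -0.84 to 0.49) for OE against KO, with adjusted p of 0.966, 0.975 and 1 (limma). The KO difference was 0.65 without KO 1 and -0.41 without KO 2, so its sign rests on which KO library is used.

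Atf4 (ENSMUSG00000042406, chr15:80255184-80257541), the factor translated after PERK acts, was at 70.7, 68.9 and 103 in the Ctrl libraries, 80.4 and 51.7 in those of KO and 108, 104, 56.2, 76.3 and 109.5 in those of OE. The 3 groups overlapped. Log2 differences were -0.30 (95% interval -1.10 to 0.50) for KO against Ctrl, 0.15 (95% interval -0.49 to 0.79) for OE against Ctrl and 0.44 (95% interval -0.29 to 1.18) for OE against KO, with adjusted p of 0.943, 0.908 and 1 (limma). Its target Ddit3 (ENSMUSG00000025408, chr10:127290774-127296288), which encodes the death-promoting factor CHOP, was far lower in TPM, at 4.44, 10.9 and 3.49 in the Ctrl libraries, 4.37 and 2.03 in those of KO and 7.28, 5.01, 5.09, 4.02 and 8.63 in those of OE. Ctrl 2 was its highest library and KO 2 its lowest, and the groups overlapped. Log2 differences of Ddit3 were -0.72 (95% interval -1.75 to 0.32), 0.04 (95% interval -0.79 to 0.87) and 0.76 (95% interval -0.19 to 1.70) in the same order, with adjusted p of 0.943, 0.989 and 1 (limma). Without Ctrl 2 the OE difference of Ddit3 from Ctrl was 0.47, and without Ctrl 3 it was -0.24. Atf4 was above Ddit3 in 10 of 10 libraries, by 6.31 to 29.5 times.

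**Figure D3:**
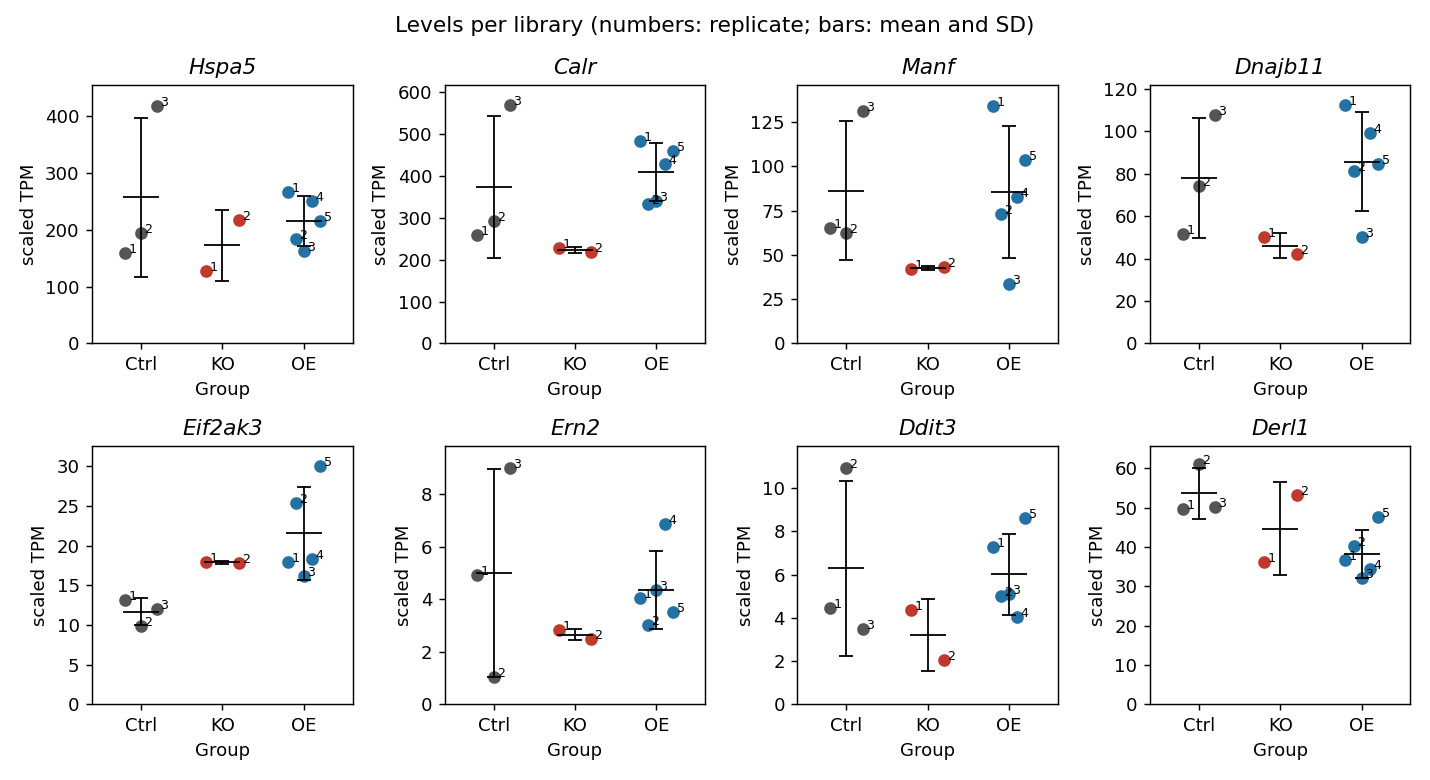
Scaled TPM of 8 genes by group on axes that start at 0, with 1 point per library labelled by its replicate number, a bar at the mean and whiskers of 1 SD. For Eif2ak3 the 3 Ctrl points lie below all others, for Calr, Manf and Dnajb11 the 2 KO points lie below all Ctrl points, and for Hspa5, Ern2 and Ddit3 1 Ctrl library sets the top of the Ctrl range.

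The next role is the BiP and GRP94 chaperone machine, 8 genes for the ER members of the HSP70 and HSP90 families and their helpers. Hspa5 (ENSMUSG00000026864, chr2:34771970-34777547) encodes BiP, the chaperone that also holds the sensors inactive. It was at 159.6, 194 and 418 in the Ctrl libraries, 128 and 217 in those of KO and 267, 184, 163, 250.1 and 215 in those of OE. Ctrl 3 was the highest library and KO 1 the lowest, 3.26 times apart, and the groups overlapped. Ctrl averaged 257 ± 140.1 (SD, n = 3), KO 173 ± 62.9 (SD, n = 2) and OE 216 ± 43.5 (SD, n = 5). Log2 differences were -0.49 (95% interval -1.45 to 0.47) for KO against Ctrl, -0.15 (95% interval -0.91 to 0.62) for OE against Ctrl and 0.34 (95% interval -0.53 to 1.22) for OE against KO, with adjusted p of 0.943, 0.927 and 1 (limma). Without Ctrl 3 the OE difference from Ctrl was 0.27, and without KO 1 the difference between OE and KO was -0.031.

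Hsp90b1, which encodes GRP94, was at 396, 256 and 597 in the Ctrl libraries, 264 and 300.0 in those of KO and 331, 364, 213, 449 and 373 in those of OE, above Hspa5 in 10 of 10 libraries. Its groups overlapped. Dnajb11, an ER co-chaperone of BiP (ENSMUSG00000004460, chr16:22857845-22879634), was at 51.5, 74.5 and 108 in the Ctrl libraries, 50.3 and 42.1 in those of KO and 113, 81.4, 50.2, 99.5 and 84.7 in those of OE. Both KO libraries lay below every Ctrl library, by a narrow margin between KO 1 and Ctrl 1, and OE overlapped KO only through OE 3. The log2 difference of Dnajb11 was 0.83 (95% interval 0.047 to 1.62) in OE against KO (limma adjusted p = 1) and -0.68 (95% interval -1.54 to 0.17) in KO against Ctrl (adjusted p = 0.943).

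Manf, a small ER protein released under stress, was at 65.1, 62.3 and 132 in the Ctrl libraries, 41.9 and 43.4 in those of KO and 134, 73.2, 33.7, 82.9 and 103 in those of OE. Both KO libraries lay below every Ctrl library, and the lowest library of all was OE 3. Its log2 difference in KO against Ctrl was -0.91 (95% interval -2.07 to 0.25) (adjusted p = 0.943, limma), the largest in size on the list in that comparison. Hyou1, a nucleotide exchange factor for BiP, ran from 31.5 in KO 1 to 77.8 in Ctrl 3. The co-chaperone Dnajb9 ran from 9.09 in KO 1 to 36.2 in Ctrl 2, Dnajc3 from 15.9 in KO 1 to 28.5 in KO 2, and Sdf2l1 from 10.2 in KO 1 to 27.0 in OE 1. KO 1 was thus the lowest of all 10 libraries for 5 of the 8 genes of this machine, Hspa5 included.

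Calr and Canx encode calreticulin and calnexin, the lectin chaperones that hold newly made glycoproteins. Calr (ENSMUSG00000003814, chr8:84841850-84846934) was at 259.9, 293 and 570.2 in the Ctrl libraries, 228 and 218 in those of KO and 484, 334, 340.2, 429.6 and 461 in those of OE. Both KO libraries lay below every other library, while Ctrl and OE overlapped. Ctrl averaged 375 ± 170.3 (SD, n = 3), KO 223 ± 7.31 (SD, n = 2) and OE 409.8 ± 69.0 (SD, n = 5). The log2 difference was 0.86 (95% interval 0.11 to 1.61) in OE against KO (limma adjusted p = 1), the smallest p of the list there, -0.65 (95% interval -1.47 to 0.16) in KO against Ctrl (adjusted p = 0.943) and 0.20 (95% interval -0.45 to 0.86) in OE against Ctrl (adjusted p = 0.869). With TPM as deposited, KO still lay below all OE libraries but overlapped Ctrl.

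Canx was at 446, 152 and 499 in the Ctrl libraries, 267 and 430.0 in those of KO and 212, 225, 258, 299 and 242 in those of OE, with Ctrl 2 lowest and Ctrl 3 highest. The ratio of Calr to Canx, both per transcript length, was 0.583 to 1.93 in Ctrl, 0.507 and 0.855 in KO and 1.32 to 2.29 in OE. Every OE ratio was thus above both KO ratios, and Ctrl spanned most of this range. The ratio was formed after the values were seen and carries no test.

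The disulfide isomerases make and rearrange disulfide bonds. Pdia6 was at 40.0, 25.5 and 106 in the Ctrl libraries, 32.7 and 50.2 in those of KO and 80.2, 59.9, 54.9, 78.4 and 80.0 in those of OE, with both KO libraries below all OE libraries and Ctrl spanning both groups. Its log2 difference in OE against KO was 0.77 (95% interval -0.24 to 1.78) (limma adjusted p = 1). P4hb, the most abundant gene of the list on average, was at 445, 1051 and 397 in the Ctrl libraries, 284 and 506 in those of KO and 644, 319, 324, 291 and 434 in those of OE, and Ctrl 2 was its highest library, followed by OE 1. Pdia3, the partner of calreticulin and calnexin, was at 241, 195 and 308 in the Ctrl libraries, 172 and 376 in those of KO and 205, 273, 197, 332 and 269 in those of OE, with the KO libraries again lowest and highest. Pdia4 ran from 13.0 in KO 1 to 34.5 in Ctrl 3. Creld2, an ER stress-inducible protein with isomerase activity, was at 6.50, 7.33 and 22.0 in the Ctrl libraries, 3.37 and 7.92 in those of KO and 17.6, 9.51, 5.64, 13.9 and 13.4 in those of OE, and its log2 difference in OE against KO was 0.98 (95% interval -0.18 to 2.13) (adjusted p = 1, limma). Leaving out KO 1 gave 0.46 for Creld2 and leaving out KO 2 gave 1.49.

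ERAD begins with mannosidase-like proteins such as Edem1, which pick misfolded glycoproteins, and passes through a membrane complex of Sel1l and the ubiquitin ligase Syvn1 with the Derlins. Syvn1 (ENSMUSG00000024807, chr19:6046576-6053712) was at 25.2, 37.7 and 30.0 in the Ctrl libraries, 16.5 and 23.1 in those of KO and 31.5, 31.0, 17.1, 35.0 and 27.2 in those of OE. Both KO libraries lay below every Ctrl library, and OE overlapped both. Its log2 difference in KO against Ctrl was -0.62 (95% interval -1.36 to 0.12) (limma adjusted p = 0.943). Edem1 was at 35.1, 54.0 and 32.1 in the Ctrl libraries, 21.8 and 43.1 in those of KO and 28.4, 24.8, 22.6, 33.5 and 27.3 in those of OE, and its log2 difference in OE against Ctrl was -0.52 (95% interval -1.12 to 0.08) (limma adjusted p = 0.755), with OE 4 above the lowest Ctrl library.

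Derl1 (ENSMUSG00000022365, chr15:57869502-57892448) was at 49.5, 61.2 and 50.1 in the Ctrl libraries, 36.2 and 53.1 in those of KO and 36.6, 40.3, 32.1, 34.5 and 47.6 in those of OE. All OE libraries lay below all Ctrl libraries, by a narrow margin between OE 5 and Ctrl 1. Its log2 difference in OE against Ctrl was -0.48 (95% interval -0.96 to -0.01) (limma adjusted p = 0.755), and with TPM as deposited it was 0.013. Derl2 (ENSMUSG00000018442, chr11:71007164-71019841) was at 29.6, 52.9 and 49.3 in the Ctrl libraries, 28.6 and 28.1 in those of KO and 44.9, 37.3, 25.7, 31.9 and 41.5 in those of OE, and both KO libraries lay below the lowest Ctrl library by little. Its log2 difference in KO against Ctrl was -0.57 (95% interval -1.29 to 0.14) (limma adjusted p = 0.943).

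Derl3 (ENSMUSG00000009092, chr10:75893413-75895941), the least abundant Derlin, was at 0.956, 1.01 and 1.08 in the Ctrl libraries, 0.141 and 0.0359 in those of KO and 0.853, 0.339, 0.780, 0 and 0.0622 in those of OE, so it was listed at 0 in OE 4. KO and OE libraries all lay below Ctrl, the contrast that the filter favoured. The log2 difference was -0.89 (95% interval -1.69 to -0.095) in KO against Ctrl (limma adjusted p = 0.943) and -0.56 (95% interval -1.20 to 0.071) in OE against Ctrl (adjusted p = 0.755). At such levels the pseudocount of 1 sets the size of the difference.

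Herpud1, an ERAD scaffold, was at 18.9, 84.2 and 27.7 in the Ctrl libraries, 22.4 and 33.5 in those of KO and 66.6, 38.4, 50.5, 22.8 and 33.1 in those of OE. Its highest and lowest libraries, Ctrl 2 and Ctrl 1, were both controls. Sel1l was at 11.8, 12.2 and 21.5 in the Ctrl libraries, 15.9 and 6.24 in those of KO and 12.2, 18.6, 17.2, 22.3 and 6.18 in those of OE, with OE 5 and KO 2 lowest and OE 4 highest. Ctrl 2 was the highest library for Herpud1, Syvn1, Edem1, Derl1 and Derl2, and for 23.5% of all genes tested. The median deviation of its sensor genes was -0.22 and that of its isomerases -0.33 on the log2 scale.

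The translocon genes code for the channel through which new proteins enter the ER. Sec61a1, its pore, varied least between libraries, by a ratio of highest to lowest of 1.74, at 74.3, 75.7 and 106 in the Ctrl libraries, 61.1 and 81.9 in those of KO and 82.6, 80.9, 70.0, 87.9 and 76.2 in those of OE. Sec61b, a small subunit, was at 84.9, 40.9 and 73.4 in the Ctrl libraries, 99.6 and 110.0 in those of KO and 138, 99.7, 54.6, 60.9 and 109.5 in those of OE. Both KO libraries lay above every Ctrl library, with a log2 difference of 0.71 (95% interval -0.26 to 1.69) (limma adjusted p = 0.943). Ssr1, a subunit of the translocon-associated complex, ran from 13.8 in Ctrl 2 to 30.1 in KO 2.

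**Figure D4:**
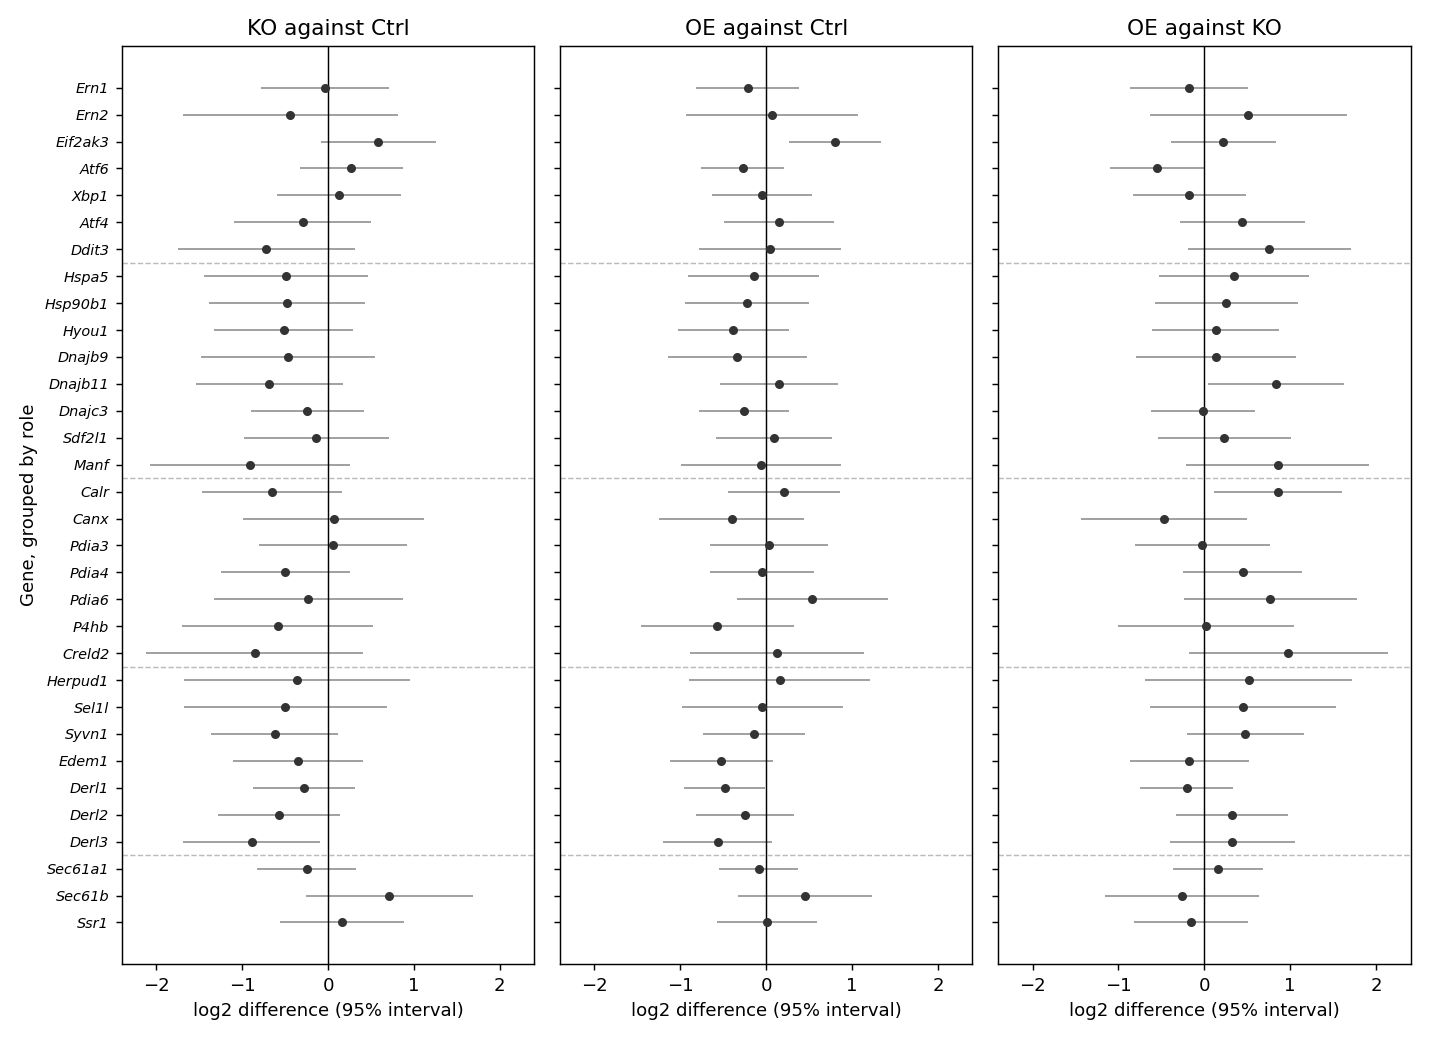
Points give the log2 difference of each of the 32 genes, in order of role, in 3 panels, with KO against Ctrl on the left, OE against Ctrl in the middle and OE against KO on the right, and lines give the 95% interval of the limma fit. Most points lie left of 0 in the first panel and right of 0 in the last, and intervals that do not include 0 are those of Derl3 in the first, Eif2ak3 and Derl1 in the second, and Calr and Dnajb11 in the last.

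Put together by comparison, 25 of the 32 genes had a lower fitted level in KO than in Ctrl, with a median log2 difference of -0.40, while 46.7% of all genes tested were lower and their median was 0.038. All 8 genes of the BiP machine (median -0.48) and all 7 ERAD genes (median -0.50, Derl3 included) were below 0, as were 5 of 7 lectin and isomerase genes (median -0.50), 4 of 7 sensors and factors (median -0.034) and 1 of 3 translocon genes (median 0.16). Without Derl3, 24 of 31 were below 0 with a median of -0.36. None of these genes passed the adjusted test. The median was -0.10, with 19 genes below 0 and 5 of the BiP machine, when KO 1 was left out, -0.18 with 20 below 0 without Ctrl 3, and -0.56 with 28 below 0 without KO 2. With TPM as deposited, where Ctrl 2 is not rescaled, it was 0.11 with 13 genes below 0, beside a median of 0.38 for all genes. On that scale Derl3, whose difference the filter favoured, was the only gene of the list with KO below all Ctrl libraries (1.47% of all genes were). Eif2ak3 and Sec61b remained the 2 above (8.44% of all genes were).

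Markers of other cells differed between these libraries too. The summed level of 8 Paneth cell genes was 471 to 6804 scaled TPM in Ctrl and 3219 to 6951 in KO, with Ctrl 2 and then KO 1 the lowest. The 7 goblet cell genes summed to 1594 to 3563 in Ctrl and to 1369.7 and 2297 in KO, with Ctrl 3 the highest of all 10 libraries. The 7 genes of macrophages and dendritic cells summed to 50.6 to 85.9 in Ctrl and to 248 in KO 1 and 149.9 in KO 2. Most of these KO sums was Lyz2, at 171 in KO 1 and 104 in KO 2 against 2.39 to 10.7 in Ctrl. Of the 6 genes of this list that were tested, 5 were above 0 in KO against Ctrl and 1 below, and Ctss averaged 45.7 in Ctrl and 42.9 in KO. The 8 fibroblast genes summed to 10.6 to 20.5 in Ctrl and to 76.3 and 22.9 in KO. Of these 4 lists, no gene was at 0 in every library. The part of these cells in the values of the 32 genes was not tested.

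In OE against Ctrl, 19 of the 32 genes were below 0 and 13 above, with a median of -0.054 beside 0.021 for all genes. The ERAD genes had 6 of 7 below 0 (median -0.25) and the BiP machine 6 of 8 (median -0.18), while sensors and factors had 4 of 7 above 0 (median 0.040). The median was 0.078 without Ctrl 3 and 0.13 without Ctrl 3, OE 3 and OE 4, the libraries low in Y-linked RNA. With TPM as deposited it was 0.40, with 3 genes below 0, beside 0.36 for all genes. Plasma cells, which rely on the same chaperones, were followed by 7 genes, whose sum was 69.5 to 243 in Ctrl, 121 and 263 in KO and 156 to 1222 in OE, with OE 4 the highest. Single genes made up much of this sum, with Igkc at 1057 in OE 4 and Sdc1 at 36.2 in Ctrl 3. Sdc1 was highest in KO 2, at 56.8, and lowest in Ctrl 2, at 15.3. Mzb1, a low gene of these 7, was listed at 0 in Ctrl 3, at 0.140 in OE 3 and at 6.20 in OE 4. Enterocyte genes, 8 in all, summed to 13337 in Ctrl 2 and 7731 in OE 1, and to 852 to 3177 in the others. The 7 T cell genes summed to 42.5 to 153 in Ctrl, to 25.1 and 65.2 in KO and to 76.4 to 321 in OE. The 6 genes of dividing cells summed to 50.5 to 224 in Ctrl, to 148 and 265 in KO and to 191 to 286 in OE. For the 5 crypt stem cell genes the sums were 72.1 to 366 in Ctrl, 195 and 240 in KO and 96.9 to 529 in OE. Paneth cell genes summed to 4897 to 16108 in OE. The part of any of these cells in the 32 genes was not tested.

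In OE against KO, 22 of the 32 genes were above 0 and 10 below, with a median of 0.24 beside -0.00062 for all genes. The BiP machine had 7 of 8 above 0 (median 0.24), the lectin and isomerase genes 5 of 7 (median 0.45), the ERAD genes 5 of 7 (median 0.33), the sensors and factors 4 of 7 (median 0.22) and the translocon genes 1 of 3 (median -0.15). No gene passed the adjusted test. The median was 0.067, with 16 genes below 0, without KO 1, and 0.38, with 4 below 0, without KO 2, so the count turned on which of the 2 KO libraries was used. Without Ctrl 2 and the library labelled OE 1, it was 0.24. As deposited, Calr and Pdia6 were again above every KO library (3.09% of all genes were) and Atf6 below (3.63% were), while Ern2 overlapped. Marker genes differed here too. All 7 T cell genes were above 0 (median 1.70), as were 7 of 8 Paneth cell genes (median 0.86) and 7 of 8 enterocyte genes (median 0.67). Of the 6 fibroblast genes tested 1 was above 0 (median -1.06), as was 1 of 6 for macrophages and dendritic cells (median -0.37). The part of these cells in the 32 genes was not tested.

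The promoter element was also set beside these differences. In KO against Ctrl, 8 of the 9 genes with an ERSE were below 0 (median -0.49), as were 12 of the 17 matched genes without it (median -0.35). Of 10 tested genes outside the list matched by symbol to a promoter with an ERSE in the same window, 6 were below 0, with a median of -0.073. A gene named differently among the promoters can be missing from this set, so its count and medians hold only for the genes matched. Ero1lb, a tested folding enzyme gene whose promoter with an ERSE is listed as Ero1b, is such a case. Its log2 difference in OE against Ctrl was -0.34, and 0.015 without Ctrl 2. In OE against KO the medians were 0.34, 0.22 and 0.084 for the same sets, and in OE against Ctrl -0.15, 0.0086 and 0.10. Derl3 is one of the 9, and the filter favoured its difference from Ctrl. Without Derl3, 7 of 8 genes with an ERSE were below 0 in KO against Ctrl (median -0.48) and 5 of 8 in OE against Ctrl (median -0.14), and the median in OE against KO was 0.41. The differences between these sets were not tested.

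The rest of the pathway was followed by 91 further genes in 7 lists, none of which passed the adjusted test in any comparison. In KO against Ctrl 56 of the 91 were below 0 (median -0.086), in OE against Ctrl 51 (median -0.046), and in OE against KO 45 (median 0.035). Leaving out Ctrl 2 turned the sign of 21 of the 91 differences in KO against Ctrl and of 29 in OE against Ctrl. Without KO 1, 38 of the 91 were below 0 in KO against Ctrl and the median was 0.12. Genes of ER-to-Golgi transport, which load and run the vesicles that leave the ER, were below 0 for 12 of 13 in KO against Ctrl (median -0.34) and for 11 of 13 in OE against Ctrl (median -0.38). Ctrl 2 was the highest of the 10 libraries for 9 of these 13 genes, and for 23.5% of all genes tested. Without it the counts were 12 and 10 of 13 and the medians -0.17 and -0.21, beside medians over all genes of 0.0073 and -0.010. Without KO 1, 7 of the 13 were below 0 in KO against Ctrl (median -0.037). Surf4, a cargo receptor of this list, was at 197 ± 79.2 (SD, n = 3) across Ctrl, 163 ± 92.8 (SD, n = 2) across KO and 131 ± 10.7 (SD, n = 5) across OE. Its 288 in Ctrl 2 stood above the 159.8 and 143 of the other Ctrl libraries, whose mean of 151 is below the KO mean. For Surf4 the log2 difference in KO against Ctrl was -0.32, against -0.014 without Ctrl 2 and 0.28 without KO 1, and in OE against Ctrl it was -0.21 without Ctrl 2. Kdelr2, which returns escaped ER proteins, was at 143 ± 16.5, 125 ± 53.8 and 102 ± 16.1 in the same groups, with a log2 difference in OE against Ctrl of -0.50 (95% interval -1.06 to 0.051, limma adjusted p = 0.755) and of -0.42 without Ctrl 2. In KO against Ctrl its log2 difference was -0.26, and 0.18 without KO 1. Group values in the rest of the pathway are means ± SD with the same numbers of libraries, in the order Ctrl, KO and OE. Sec24d, a vesicle coat gene, was at 26.6 ± 21.6, 12.4 ± 7.0 and 11.3 ± 1.87. Its Ctrl mean rests on 51.3 in Ctrl 2, and the other Ctrl libraries were at 17.1 and 11.5.

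Among 16 signalling partners, 10 were below 0 in KO against Ctrl and 11 in OE against Ctrl. Atf6b, a relative of Atf6, was at 15.8 ± 2.13 across Ctrl, 11.4 ± 2.44 across KO and 8.22 ± 3.24 across OE, and all OE libraries lay below all Ctrl libraries. Its log2 difference in OE against Ctrl was -0.93 (95% interval -1.61 to -0.26, limma adjusted p = 0.755). Nfyb, a subunit of the CCAAT-binding factor NF-Y, was at 7.89 ± 1.84, 9.26 ± 0.868 and 11.5 ± 2.24. Tmbim6, an abundant ER membrane protein, was at 698 ± 173, 636 ± 158 and 569 ± 157 (log2 difference in KO against Ctrl -0.13, 0.065 without Ctrl 2 and 0.12 without KO 1), and Rtcb, the ligase that joins the spliced Xbp1 mRNA, at 35.0 ± 6.25, 45.6 ± 1.07 and 41.9 ± 5.99.

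Of 15 targets of the PERK and ATF4 branch, 8 were below 0 in KO against Ctrl (median -0.013) and 8 above 0 in OE against Ctrl (median 0.051). Atf3 was at 2.03 ± 1.45 across Ctrl, 0.936 ± 0.165 across KO and 3.83 ± 2.09 across OE, with all OE libraries above both KO libraries and a log2 difference of 1.20 (95% interval 0.090 to 2.31, limma adjusted p = 1). Ddit4 was at 6.30 ± 4.09, 5.09 ± 3.51 and 9.21 ± 3.39, Ppp1r15b, which helps to restart translation, at 68.9 ± 7.25, 75.2 ± 28.2 and 57.9 ± 5.81, and the amino acid transporter subunit Slc3a2 at 66.4 ± 55.7, 29.7 ± 7.16 and 36.9 ± 12.8. Slc3a2 was at 130.4 in Ctrl 2 and at 39.5 and 29.3 in the other Ctrl libraries, and its log2 difference in OE against Ctrl was -0.59, against 0.043 without Ctrl 2. Without Ctrl 3 the log2 difference of Ddit4 in KO against Ctrl turned from -0.25 to 0.17.

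Of 15 other folding enzymes, 8 were below 0 in KO against Ctrl (2 of 15 without KO 1) and 9 above 0 in OE against KO (6 of 15 without KO 1). Agr2, the isomerase of goblet cells, was at 583 ± 527 across Ctrl, 426 ± 86.6 across KO and 684 ± 275 across OE. It was at 109 in Ctrl 2, and without that library its log2 difference turned from 0.094 to -0.83 in KO against Ctrl and from 0.68 to -0.25 in OE against Ctrl. The prolyl isomerase gene Fkbp2 was at 2.50, 15.5 and 0 in the Ctrl libraries, at 0 and 3.15 in those of KO and at 5.46 to 29.0 (median 13.9) in those of OE, with a log2 difference in OE against KO of 2.77 (95% interval 0.65 to 4.88, limma adjusted p = 1), and Sil1, an exchange factor for BiP, at 3.27 ± 2.28, 4.71 ± 0.331 and 6.03 ± 1.27. Ppib was at 72.9 ± 22.3, 89.0 ± 14.2 and 79.1 ± 9.96, with a log2 difference in OE against Ctrl of 0.15, against -0.10 without Ctrl 2.

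Of 11 other degradation genes, 6 were below 0 in KO against Ctrl and 6 in OE against Ctrl. Man1b1, a mannosidase, was at 70.0 ± 20.2 across Ctrl, 74.5 ± 11.8 across KO and 38.0 ± 14.8 across OE, with a log2 difference in OE against Ctrl of -0.91 (95% interval -1.63 to -0.18, limma adjusted p = 0.755). The ubiquitin-conjugating enzyme gene Ube2g2 was at 4.68 ± 1.63, 6.32 ± 2.16 and 8.50 ± 2.64. Of 14 genes of translocation and signal peptidase, Ssr4 was at 128 ± 13.0, 241 ± 109 and 151 ± 24.1, with a log2 difference in KO against Ctrl of 0.84 (95% interval 0.13 to 1.55, limma adjusted p = 0.943). Ssr3 was at 89.9 ± 7.87, 111 ± 65.7 and 85.3 ± 10.8, and Srprb, a subunit of the signal recognition particle receptor, at 6.08 ± 1.63, 4.09 ± 1.45 and 6.71 ± 1.61. The log2 difference of Srprb in OE against Ctrl was 0.12, against -0.046 without Ctrl 2. In KO against Ctrl, 8 of these 14 were below 0. Of 7 genes of the oligosaccharyltransferase, which adds sugar chains, Rpn2 was at 314 ± 164, 279 ± 3.80 and 334 ± 33.9, Stt3a at 127 ± 44.1, 102.0 ± 12.4 and 88.5 ± 29.3, and Stt3b at 50.2 ± 6.74, 64.0 ± 19.7 and 44.3 ± 7.98. The log2 difference of Rpn2 was 0.23 in OE against Ctrl, against -0.22 without Ctrl 2, and -0.024 in KO against Ctrl, against 0.36 without Ctrl 3.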

How the data were processed

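Total RNA of ileal crypts was sequenced in 10 libraries, 3 Ctrl, 2 KO and 5 OE, single-end per the labels' protocols. The deposited values are TPM per Ensembl gene ID, per the file headers of 9 libraries. That of Ctrl 1 names none, and its values have the same range and sum. The submitters' processing notes list TopHat, Cufflinks and mm10 with no version. The tool behind the TPM, its annotation and the treatment of reads shared by similar genes were not given in the sources used here. Depth is unknown, so no counting interval is given.

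TPM were divided by median-ratio factors over the 11146 genes above 0 in all libraries, with a geometric mean of 1 (0.295 for Ctrl 2, 0.831 to 1.31 for the others). Genes at 1 TPM or more in at least 2 libraries were kept, 13056 in all. limma 3.58.1 in R 4.3.3 fitted 3 group means to log2(scaled TPM + 1) with an intensity trend over all 10 libraries, and p-values were Benjamini-Hochberg adjusted over all genes tested. Differences are on that log2 scale, which understates changes of low genes. The code was tested on simulated data. No 2 libraries had identical values. Symbols and coordinates came from GENCODE M21 (GRCm38) and promoters from RefSeq (GRCm38.p6). Pathway and marker genes were matched by symbol, and 1 of 64 marker entries, Igha, was not matched.

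The 32 genes, the other lists and the tests were chosen with earlier results of these data known. Differences with intervals are given for Hspa5, Xbp1, Atf4, Ddit3, Ern1 and Ern2 and for the 4 genes of the list with the smallest p in each comparison, and for other genes described by library, chosen after their values were seen. In each pathway list, with none called, the 2 most abundant genes and the 2 with the smallest p were named, except 1 gene that is not reported here. Alternatives were TPM as deposited, quantile normalization, nuclear-encoded TPM only, pseudocounts of 0.1 and 5, a filter of 5 TPM or none, fits on the 2 groups alone, limma with library weights or robust, a replicate block, a threshold of 0.1, and leaving out each library. Leaving out Ctrl 3, OE 3 and OE 4, or Ctrl 2 and OE 1, counts of genes below 0, pathway values without Ctrl 2, Ctrl 3 or KO 1, and ERSE values without Derl3 were added after seeing the data.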

Additional observations from a re-analysis of the deposited data

Results flagged for a closer look

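In 2 of the 32 genes, 1 OE library lay farther from the other 4 than Dixon's 95% critical value for 5 libraries, 0.71, allows. Ern1, the gene of IRE1, was at 8.70 scaled TPM in OE 3, and the nearest other OE library, OE 4, was at 5.89. Hyou1, the exchange factor for BiP, was at 74.9 in OE 4, and the nearest, OE 1, was at 43.1. Chance flags about 1 in 20 such groups, so 2 of 32 is close to what chance gives. OE 3 and OE 4 are also the OE libraries with low Y-linked RNA, and OE 4 has the highest sum of plasma cell genes, at 1222. The part of either in these values was not tested.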

How the results depend on the processing

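No gene of the list passed an adjusted p of 0.05 under any alternative run, nor at a threshold of 0.1. Of 30 differences followed, 15 kept their sign in every alternative run and 15 did not. TPM as deposited moved the median of all genes to 0.38 in KO against Ctrl and 0.36 in OE against Ctrl, and the median of the list to 0.11 (13 genes below 0) and 0.40 (3 below 0). On that scale KO against Ctrl was 0.040 for Hspa5, 0.22 for Atf4 and 0.33 for Ern1, and OE against Ctrl was 0.36 for Hspa5, 0.45 for Xbp1, 0.14 for Ern1 and 0.013 for Derl1. With nuclear-encoded TPM only, the OE against Ctrl median was 0.0085, Xbp1 was 0.015 there, and Ern1 0.049 in KO against Ctrl. Quantile normalization gave 0.032 for Xbp1 and -0.054 for Ern2 in OE against Ctrl, a pseudocount of 5 gave -0.027 for Ern2, and library weights gave 0.056 for Hspa5 and -0.31 for Ern2. Without Ctrl 3, OE 3 and OE 4, the OE against Ctrl median was 0.13 (12 genes below 0), Hspa5 was 0.32, Xbp1 0.010 and Ddit3 -0.039, and in KO against Ctrl Ern1 was 0.12 and Ern2 0.054. Without Ctrl 2 and OE 1, Atf4 was -0.034 and Ern2 -0.57 in OE against Ctrl.

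Leaving out each library in turn gave these ranges. In KO against Ctrl the median ran from -0.56 to -0.10, Xbp1 from -0.41 to 0.65, Atf4 from -0.61 to 0.017, Ern1 from -0.31 to 0.23 and Ern2 from -1.10 to 0.063. In OE against Ctrl the median ran from -0.17 to 0.078, Hspa5 from -0.42 to 0.27, Xbp1 from -0.12 to 0.015, Ddit3 from -0.24 to 0.47 and Ern2 from -0.58 to 0.57. In OE against KO 4 to 16 genes were below 0, Hspa5 ran from -0.031 to 0.72, Xbp1 from -0.70 to 0.36 and Ern1 from -0.45 to 0.089. The cause of these turns was not tested. A lone KO library is assumed to vary like the other groups.

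With the replicate block, Ern1 was 0.14 in KO against Ctrl, and Xbp1 0.0015 and Ern2 -0.056 in OE against Ctrl, while the medians were -0.35, -0.14 and 0.16 in the 3 comparisons. No source used here says that equal numbers pair libraries, and the check below cannot exclude it. Deviations were taken from group means, so those of the 2 KO libraries are mirror images. Ctrl 1, for example, correlated at -0.17 with KO 1 and at 0.17 with KO 2. Of 7 same-numbered pairs, 0 had deviations that correlated over 0.1 (range -0.18 to 0.063), and 0 of 8 libraries correlated best with their own number. Unknown depth leaves the error of low genes such as Derl3, Ern2 and Ddit3 unmeasured.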
